A study of Mus musculus with 6 samples.

Results

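A back splice joins the end of an RNA segment to its own start, and reads across that joint are the evidence for a circular RNA (circRNA). The deposited table of mural granulosa cells lists 316626 back-splice junctions, and 87903 of them name no gene. The junctions described here are the 3254 of those that had at least 5 back-splice reads summed over all 6 libraries. They were chosen by these read totals, so the totals are given as a description. Of all junctions, 24043 reached 5 reads, and the other 20789 of these name a gene. At the threshold, 1538 members had exactly 5 reads and 3733 junctions naming no gene had exactly 4. The members held 35287 reads, 20.5% of the 172178 reads on junctions naming no gene.

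The cells came from preovulatory follicles of wild-type (WT) CF-1 mice injected at 21 days of age with 5 IU of PMSG, a gonadotropin also called eCG that drives follicle growth. The 0-h group (n = 3 mice) was taken 46 h after PMSG alone, and the 4-h post-hCG group (n = 3 mice) was taken 4 h after 5 IU of hCG, which acts on the luteinizing hormone (LH) receptor, given to mice primed in the same way. Each library is the cell preparation of a single mouse, pressed out of punctured follicles, so it can hold other follicular cells.

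Most circRNA form when the splicing machinery links a downstream splice donor to an upstream acceptor. The intron bases that flank such a circle are AG just before its first base and GT just after its last. Another class, the intronic circles (ciRNA), is what remains of an excised intron lariat and starts at the first base of the intron, so it follows other sequence rules. Junctions at which both ends carry the same few bases can be placed in more than 1 way, and the same joint may then be listed in several rows. In mural granulosa cells, the LH surge turns on genes of cumulus expansion, follicle rupture and luteinization within hours and turns down genes of the growing follicle.

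The following stretches of the genome (GRCm38, written 5′ to 3′ on the strand given in the table) show the kinds of ends among the members. In the first group, capitals mark the AG before and the GT after the circle. These are the members with most reads in a RefSeq antisense transcript, outside any gene and in Sema5a, and the Mast4 member that rose most clearly after hCG.
Kirrel3os, upstream end, chr9:34985115-34985154, minus strand: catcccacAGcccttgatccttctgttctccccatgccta
Kirrel3os, downstream end, chr9:34983611-34983650, minus strand: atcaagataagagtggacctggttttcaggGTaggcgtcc
No gene, upstream end, chr10:47474511-47474550, plus strand: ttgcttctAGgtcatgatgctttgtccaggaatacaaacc
No gene, downstream end, chr10:47475399-47475438, plus strand: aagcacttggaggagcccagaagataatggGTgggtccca
Sema5a, upstream end, chr15:32269673-32269712, plus strand: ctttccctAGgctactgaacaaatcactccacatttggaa
Sema5a, downstream end, chr15:32271375-32271414, plus strand: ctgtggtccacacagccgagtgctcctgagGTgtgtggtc
Mast4, upstream end, chr13:103315008-103315047, minus strand: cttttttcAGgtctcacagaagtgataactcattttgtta
Mast4, downstream end, chr13:103305659-103305698, minus strand: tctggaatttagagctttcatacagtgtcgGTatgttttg
Each window holds 10 bases outside the junction and 30 inside it.

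Short members are shown whole, with 10 bases on either side. The 44-base Ephx2 member has AG and GT in capitals. In the 85-base member opposite Capzb and the 55-base Slc7a8 member, which lack them, capitals mark the bases that both ends share.
Ephx2, chr14:66100573-66100636, minus strand: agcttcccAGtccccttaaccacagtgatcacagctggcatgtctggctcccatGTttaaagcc
Opposite Capzb, chr4:139206825-139206929, minus strand: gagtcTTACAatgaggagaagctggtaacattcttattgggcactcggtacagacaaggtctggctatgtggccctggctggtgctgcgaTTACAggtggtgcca
Slc7a8, chr14:54727914-54727988, minus strand: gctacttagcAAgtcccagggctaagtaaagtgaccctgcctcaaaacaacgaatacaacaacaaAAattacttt
The last example is a ciRNA, the Slc7a8 member at chr14:54724937-54726734, whose first 2 bases, in capitals, are the GT of the intron start.
Slc7a8 ciRNA, upstream end, chr14:54726705-54726744, minus strand: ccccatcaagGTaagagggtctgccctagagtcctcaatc

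The name of the class in the table does not mean that the members lie outside genes. Its column of ends calls both ends intergenic for 3014 members, but in the GENCODE M21 annotation both ends of 2028 of these lay in introns of a gene on the same strand and both ends of 427 lay in exons. Over all 3254 members, 2721 (83.6%) had a GENCODE gene on the same strand at an end, in 1399 different genes or gene combinations. RefSeq added a same-strand gene for 115 more. Both ends lay in introns for 2128 members, in exons for 441, and in an exon and an intron for 116. A further 213 lay in a gene on the opposite strand only, 298 had no GENCODE gene at either end, and 58 were other mixes. Only 217 members had no gene of either annotation on either strand.

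**Figure D1:**
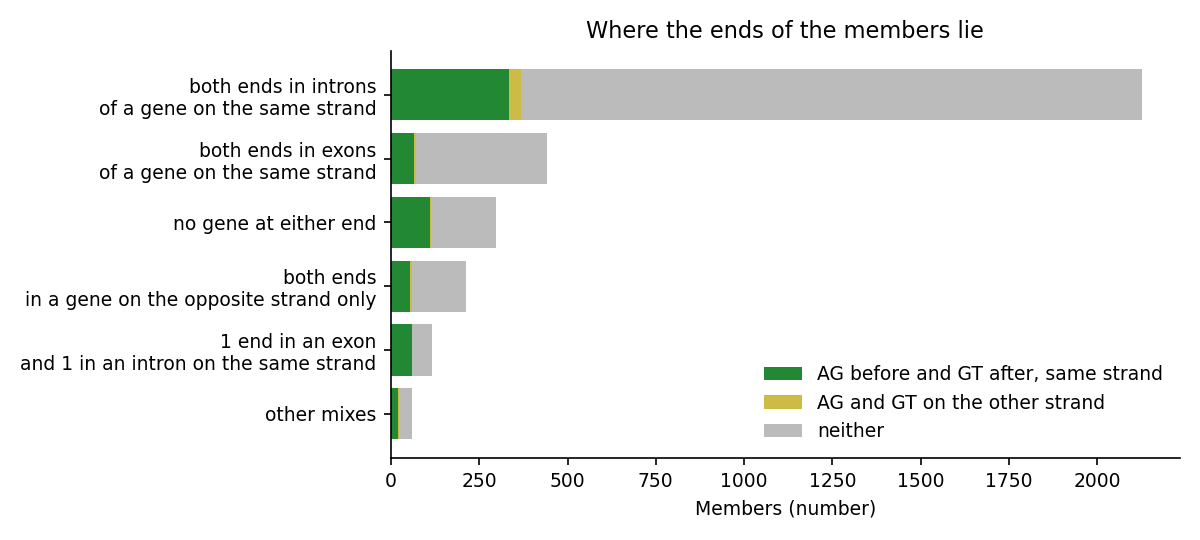
Members by where their ends lie in GENCODE M21 (bars, number of members), divided by whether AG stands before and GT after the circle on the table's strand, on the other strand, or neither. The largest bar is the 2128 members with both ends in introns, of which 335 have AG and GT on the same strand.

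By GENCODE's types, genes at the ends were mostly protein coding (2420 members), and 198 members touched a lincRNA, a long non-coding RNA between coding genes. Pseudogenes were touched by 69 members, an rRNA gene by 1 and a haemoglobin gene by 0. No snRNA, snoRNA or scaRNA gene lay at an end. These are the types given to annotated genes, and the kind of RNA behind the reads was not tested. Members were spread over 1453 genes or combinations of genes, and 916 of these had a single member.

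AG and GT framed 641 members (19.7%, with a 95% exact binomial interval from 18.3% to 21.1% that covers counting error only) on the table's strand and 54 on the other strand, and 2559 had neither. Among junctions naming a gene, 15703 of 20789 had them on the same strand. The table's junction type column carries the same information: in all 3254 members its value was the one the genome sequence gave. Shifting the ends within their shared bases brought no further member into the group. This check kept the unshifted position, so it could not take a member out. Members with AG and GT were the deeper ones, with 12903 reads in 641 junctions against 21756 reads in 2559, and the share rose to 39.3% among members with at least 10 reads.

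Members with splice dinucleotides rarely began or ended at annotated exon ends. Of the 641, 76 began at an annotated exon start (11.9%), 83 ended at an annotated exon end (12.9%), and 46 did both, whereas junctions naming a gene with AG and GT did so for 93.4% and 92.5%. Neither end was annotated for 528. The members were chosen for naming no gene, and this choice may itself set the contrast, which is therefore only a description.

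The kinds also differed in size. Members with AG and GT had a median span of 3740 bases (quartiles 1144 to 12693), against 349 bases (117 to 742) for members with neither. Spans of 100 bases or less made up 21.7% of the members with neither and 2.96% of those with AG and GT. Junctions naming a gene had medians of 9244 and 679 bases in the same order. The full range over members ran from 30 to 205828 bases. At least as many repeat as other bases lay around the ends of 22.98% of the members with neither and of 9.36% of those with AG and GT.

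**Figure D2:**
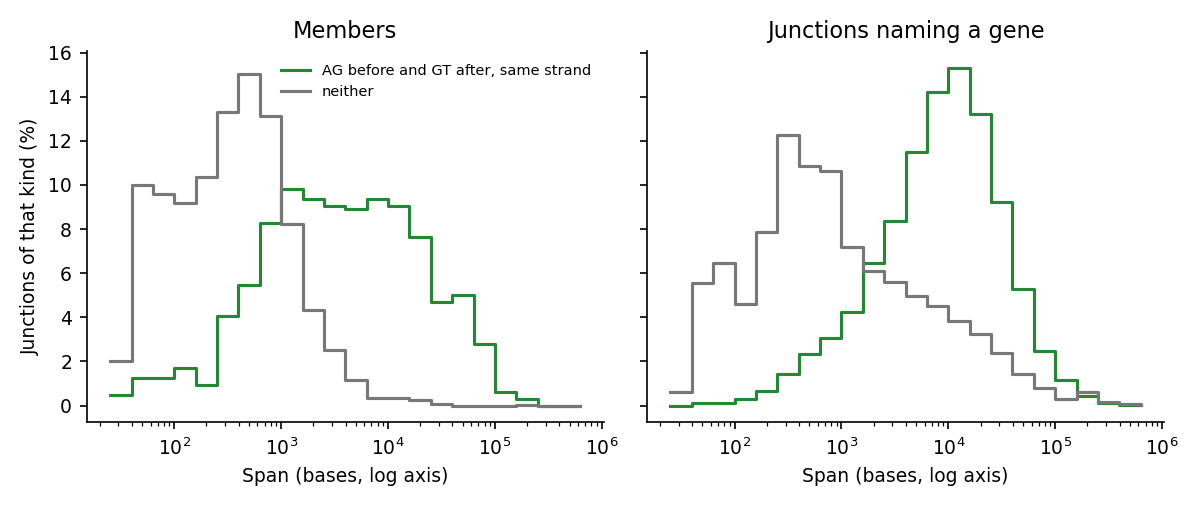
Span of the junctions (x axis, bases, log scale) as a percentage of each kind (y axis), for members (left) and junctions naming a gene (right). In both panels the junctions with AG and GT (green) reach to longer spans than those with neither (grey), with member medians of 3740 and 349 bases.

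Many rows were not separate joints. Joining rows that differ only by a shift within shared bases, or by strand, left 2729 sets, and 522 of these held 2 or more rows, 1047 rows in all. At Slc7a8, 2 rows of 55 bases with 176 and 109 reads sat 2 bases apart, with 2 bases shared by both ends. Both strands were present in 4 sets. One of them is the 85-base joint at Capzb, which encodes a subunit of the actin-capping protein. Its row on the minus strand had 550 reads and its row on the plus strand, shifted by the 5 shared bases, had 276.

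The libraries held 141778 to 194450 back-splice reads each, and 15.6% to 18.9% of them named no gene. Of 10 granulosa cell markers, all were measured, and their linear counts summed to 277 to 300.04 CPM (counts scaled to library size) at 0-h and 207 to 239 after hCG. The 6 theca and stroma markers summed to 32.2 to 54.0 and 23.96 to 31.4, the 7 oocyte markers to 5.18 to 6.32 and 4.06 to 6.39, and the 4 endothelial markers to 1.03 to 2.24 and 1.62 to 1.82. Of 6 blood and immune markers 3 had a junction, and they summed to 55.6 to 71.8 and 49.1 to 79.1, nearly all of it from the haemoglobin gene Hba-a1. The germ cell gene Ddx4 and the endothelial gene Tek were at 0 in 2 libraries each, and the leukocyte gene Ptprc in 1. The part of these cells in the results was not tested, and fewer cells of a type and less RNA per cell cannot be told apart in bulk libraries.

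Library 4-h post-hCG replicate 1 stood apart. The members had 5015, 6438 and 3967 reads in the 3 libraries at 0-h, and 10920, 5038 and 3909 in the 3 libraries at 4-h post-hCG. As a share of all back-splice reads of a library, this was 2.58%, 3.33% and 2.51% at 0-h and 5.85%, 3.09% and 2.76% at 4-h post-hCG. The groups overlapped. The mean was 2.81% ± 0.46 (SD, n = 3) and 3.90% ± 1.70 (SD, n = 3), a difference of 1.095 percentage points (two-sided exact permutation test, p = 0.4, where 0.1 is the smallest value possible). Without 4-h post-hCG replicate 1 the difference was 0.12 points.

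That library was highest on members without splice dinucleotides. Its reads on them were 4.05% of its back-splice reads, against 1.38% to 2.14% in the other 5 libraries. It also held 904 of the 1812 members that were read in a single library, followed by 0-h replicate 2 with 396, and 68 to 215 in each of the others. Junctions naming a gene behaved likewise in this library: those without splice dinucleotides took 8.54% of its reads against 2.43% to 4.77% elsewhere. Being read in a single library was commoner among members with neither dinucleotide (1660 of 2559, 64.9%) than among those with AG and GT (120 of 641, 18.7%). Only 186 members were read in all 6 libraries, and these held 38.8% of all member reads.

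**Figure D3:**
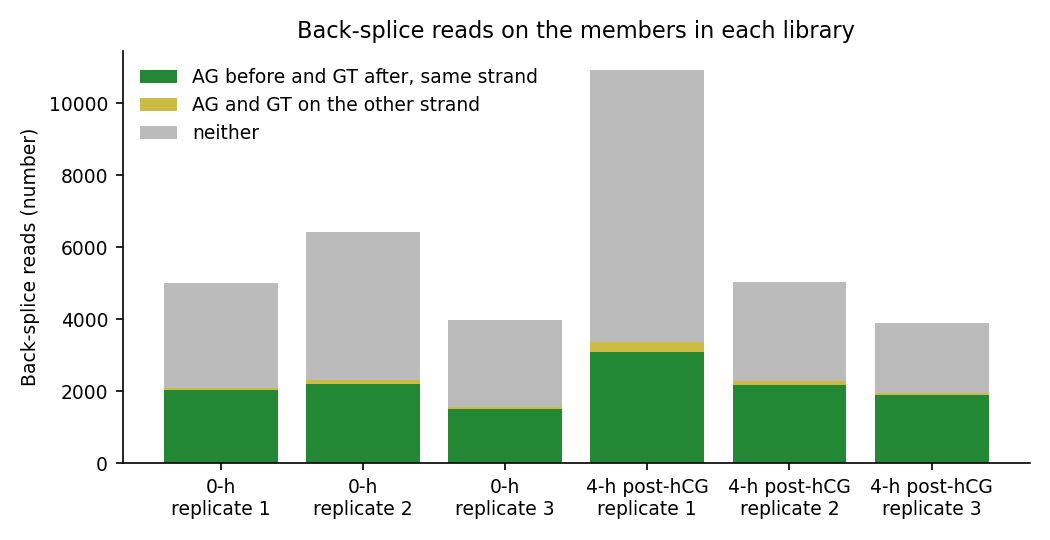
Back-splice reads on the members in each library (bars, number of reads), divided by the dinucleotides at the ends. Library 4-h post-hCG replicate 1 reaches 10920 reads, and 7558 of them are on members with neither AG nor GT.

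The members with AG and GT were more even. They took 1.05%, 1.143% and 0.943% of back-splice reads at 0-h and 1.65%, 1.34% and 1.34% at 4-h post-hCG. These groups did not overlap, with a difference of 0.40 points at the smallest p the design allows (p = 0.1, two-sided exact permutation test). Of the 8 junctions called below, 4 are in this class, and without them its shares were 0.928% to 1.12% and 1.12% to 1.48%, and the groups overlapped (p = 0.2, two-sided exact permutation test). The split by dinucleotides was chosen after the data were seen.

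Reads were concentrated in few members. The median member had 6 reads and the upper quartile 7, whereas 31 had 100 or more and the 10 deepest held 4902 reads (13.9%). The deepest, at chr9:34983621-34985144 on the minus strand, spans 1524 bases with both ends inside Kirrel3 but on its opposite strand, where RefSeq annotates the antisense transcript Kirrel3os. Kirrel3 itself encodes a cell adhesion protein of the immunoglobulin family. This member had 137, 164 and 118 back-splice reads at 0-h and 165, 159 and 179 at 4-h post-hCG, 922 in all. The groups overlapped, as judged here and below on reads as counted unless scaled reads are named, and the log2 fold change of 0.35 ± 0.21 (SE) was not called (adjusted p = 0.52, edgeR). Its linear counts, 142, 182 and 110 at 0-h and 205, 134 and 160 at 4-h post-hCG, were of the same size as its back-splice reads.

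Kirrel3os carried 26 members with 1726 reads, all 26 framed by AG and GT, the most for any gene at the ends of members. All 5 longest members with at least 20 reads were among them, spanning 76394 to 99699 bases and holding 29 to 98 reads. They share ends: only 2 positions occur on their upstream side, 35034252 in 3 of them and 35034243 in the other 2. None of the 26 was called in back-splice reads or in linear counts, and the median log2 fold change of their linear counts was 0.13.

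The second member by reads, at chr10:47474521-47475428 on the plus strand, lies in no annotated gene, and the nearest GENCODE entry, Gm9068, is 148849 bases away. It had 121, 90 and 84 reads at 0-h and 147, 119 and 97 at 4-h post-hCG, and 56% of the bases around its ends lay in repeats. Its groups overlapped in reads as counted but not in scaled reads, and it was not called (log2 fold change 0.34 ± 0.23 SE, adjusted p = 0.52, edgeR). In Sema5a, which encodes a transmembrane guidance protein of the semaphorin family, the deepest of 16 members (chr15:32269683-32271404) starts at an annotated exon and finishes in an intron. It had 80, 111 and 60 reads at 0-h and 112, 85 and 108 at 4-h post-hCG, with overlapping groups. Shisa6, known from neurons for an auxiliary subunit of AMPA receptors, had a member between introns (chr11:66343764-66350250) with 34, 48 and 28 reads at 0-h and 59, 37 and 43 at 4-h post-hCG. Its linear counts were no higher than that, at 37 to 48 in every library. Over all members, 291 had at least as many back-splice reads as linear counts, 8.94% against 0.746% of junctions naming a gene.

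Ano4, encoding a protein of the anoctamin family, held a member with both ends at annotated exon ends (chr10:89317091-89327333). It had 63, 50 and 68 reads at 0-h and 20, 61 and 29 at 4-h post-hCG, and the groups overlapped (log2 fold change -0.66 ± 0.31 SE, adjusted p = 0.52, edgeR). The pair of rows at Capzb had 96, 119 and 94 reads at 0-h and 165, 58 and 18 at 4-h post-hCG on the minus strand (chr4:139206835-139206919), and 29, 50 and 60 against 40, 53 and 44 on the plus strand (chr4:139206840-139206924). The 4-h post-hCG values of the minus-strand row spread from below to above all 0-h values. It was called lower only when 4-h post-hCG replicate 1 was left out (log2 fold change -1.28, adjusted p = 0.015, edgeR).

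By the table's types, 3123 members had none, 130 were ciRNA and 1 was circRNA. All 130 ciRNA started exactly at the first base of an annotated intron, and 117 had both ends in introns of the same strand. They had 1457 reads, a median span of 792 bases (98 to 6726) and AG and GT in 5. Of the members without a type, 17 started at that base too and 47 were 1 base away. The deepest ciRNA lay in Frmd5, which encodes a FERM domain protein. This 98-base member (chr2:121554167-121554264, with 21 bases shared by its ends) had 5, 13 and 12 reads at 0-h and 60, 22 and 19 at 4-h post-hCG. Its groups did not overlap, but it was not called (log2 fold change 1.71 ± 0.46 SE, adjusted p = 0.17, edgeR). The next, in Tctn1, a gene of the ciliary transition zone, had 6, 17 and 4 reads against 28, 10 and 7, which overlapped. The single circRNA, at chr8:79118175-79120540 opposite Zfp827, had 9 reads.

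Of 68 members that the table called exon-exon, 54 lay in a gene on the opposite strand only. The same held for 5 of 39 exon-intergenic and 21 of 133 intergenic-exon members, while 92 of these 133 had both ends in same-strand introns. The kinds of ends with an intergenic label at both sides took 93.0% ± 0.28 (SD, n = 3) of member reads at 0-h and 90.5% ± 0.86 (SD, n = 3) at 4-h post-hCG. Exon-exon members took 1.23% ± 0.08 and 1.93% ± 0.45 (SD, n = 3 each), and ciRNA took 3.90% ± 0.25 and 4.32% ± 0.16 (SD, n = 3 each). These groups did not overlap, and each gave the smallest p of the design (p = 0.1, adjusted p = 0.175 over 7 classes, two-sided exact permutation test). Among members with at least 10 reads, and again over every junction naming no gene, both exon-exon and ciRNA shares overlapped between the groups. Over every such junction the exon-exon difference was 0.118 points (p = 0.6, exact permutation test), against 0.703 points over the members. Exon-intergenic and intergenic-exon members overlapped between the groups (p = 0.2, adjusted p = 0.233, exact permutation test).

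Members were found on every chromosome. Chromosome 17 held most, 316, and 133 of these lay in Gm26917, which GENCODE types as a lincRNA. Its members covered only chr17:39843336-39848702. They had 1451 reads in 103 sets, with a median span of 255 bases, AG and GT in 1, and at most 58 reads each. Their linear counts summed to 897523 to 915151 in each library, and what kind of RNA this is was not tested. Chromosomes 13, 2 and 9 followed with 249, 243 and 231. The share with AG and GT was 8.54% on chromosome 17 and 45.7% on chromosome X. Per megabase the mitochondrial genome stood first, with 23 members. Its 3 deepest, of 57 to 63 bases, lay opposite mt-Nd5 and mt-Nd6, subunits of respiratory complex I, at MT:13313-13370, MT:13917-13979 and MT:13673-13729. The first had 2, 4 and 12 reads at 0-h and 12, 10 and 9 at 4-h post-hCG, beside 5082 to 6273 linear counts per library. The second had 3, 0 and 3 against 9, 9 and 2, and the third 8, 4 and 4 against 1, 3 and 2. Only the third had groups that did not overlap (adjusted p = 0.56, edgeR), and none was called.

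The comparison of 4-h post-hCG with 0-h asks which of these junctions change after the ovulatory signal. A junction was called when it changed 1.5-fold or more with an adjusted p no higher than 0.1 (edgeR quasi-likelihood test). Back-splice reads of 8 of the 3254 members were called, all higher at 4-h post-hCG. Over all 24043 junctions fitted, 19 were called (0.079%), all of them higher, and 11 of these named a gene. Among the 3254 members, 95 had an unadjusted p under 0.05, a share close to that of all junctions fitted (665 of 24043). The median log2 fold change was 0.74 over members, 0.15 over all junctions fitted, and 0 over members without 4-h post-hCG replicate 1. The p-values rest on 3 mice a group.

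The 8 lay in only 4 places: 1 in Ephx2, 3 in Mast4, 3 in Slc7a8 and 1 opposite Gm10800. Ephx2 encodes soluble epoxide hydrolase, an enzyme of lipid mediator breakdown. Its 44-base intronic member (chr14:66100583-66100626), with AG and GT at its ends, had 4, 2 and 2 reads at 0-h and 60, 232 and 116 at 4-h post-hCG. Every library at 4-h post-hCG was far above every library at 0-h. In scaled CPM it was at 18.1 ± 6.89 and 1006 ± 669 (SD, n = 3 each), a 53.0-fold increase (log2 fold change 5.73 ± 0.37 SE, adjusted p = 1.9e-48, edgeR). Under all 14 alternatives it remained called, at log2 values from 5.12 to 6.13. It stood with 6 other Ephx2 members that had 72 reads in all.

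Mast4, a microtubule-associated serine/threonine kinase, had 29 members between introns with 898 reads, and 17 of them had AG and GT. Together they had 91, 63 and 31 reads at 0-h and 389, 169 and 155 at 4-h post-hCG. The deepest (chr13:103305669-103315037) had 19, 18 and 15 reads at 0-h and 161, 74 and 62 at 4-h post-hCG. The groups were far apart, and the increase was 5.68-fold (log2 fold change 2.51 ± 0.32 SE, adjusted p = 1.6e-11, edgeR) and called under every alternative. A member with the same upstream end (chr13:103305775-103315037) had 39, 18 and 6 reads against 74, 46 and 39. Its groups touched at 39, though scaled reads did not overlap, and the call (log2 fold change 1.41 ± 0.36 SE, adjusted p = 0.092, edgeR) was lost without 0-h replicate 2 or 3 or without 4-h post-hCG replicate 1 or 3 (adjusted p from 0.175 to 0.744). The third, which shares its downstream end with the second (chr13:103305775-103310550), had 3, 1 and 1 reads against 31, 6 and 15, with no overlap. It rose 9.85-fold (adjusted p = 0.038, edgeR), and its call was lost without the same 4 libraries (adjusted p from 0.175 to 0.885).

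Slc7a8 encodes a transporter of large neutral amino acids. Its 2 called rows of 55 bases are the same joint shifted by 2 bases, so they count once. The deeper row (chr14:54727924-54727978) had 11, 2 and 5 reads at 0-h and 71, 49 and 38 at 4-h post-hCG, and the other had 8, 2 and 3 against 49, 25 and 22. No library of 1 group reached the range of the other. The deeper row rose 8.78-fold (log2 fold change 3.13 ± 0.44 SE, adjusted p = 4.0e-09, edgeR) and the other 7.31-fold, and both remained called under every alternative in which they were fitted. The Slc7a8 ciRNA had 0, 4 and 0 reads against 22, 8 and 22. It rose 12.9-fold (log2 fold change 3.69 ± 0.80 SE, adjusted p = 0.0072, edgeR), and the call was lost without 0-h replicate 1 or 3 or without 4-h post-hCG replicate 3 (adjusted p from 0.102 to 0.555).

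The last of the 8 has an end opposite Gm10800 and an end outside it (chr2:98667100-98667333), and 88% of the bases around its ends are repeats. AG and GT frame this member on the other strand, that of Gm10800, and not on the table's strand. It had 6, 6 and 17 reads at 0-h and 103, 35 and 15 at 4-h post-hCG. The groups overlapped, and without 4-h post-hCG replicate 1 it was no longer called (log2 fold change 1.45, adjusted p = 0.885, edgeR) against 2.26 ± 0.41 SE (adjusted p = 0.00013) with it. A second row there (chr2:98666849-98667333) had 0, 2 and 1 against 23, 9 and 6 and was not called (adjusted p = 0.19, edgeR).

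**Figure D4:**
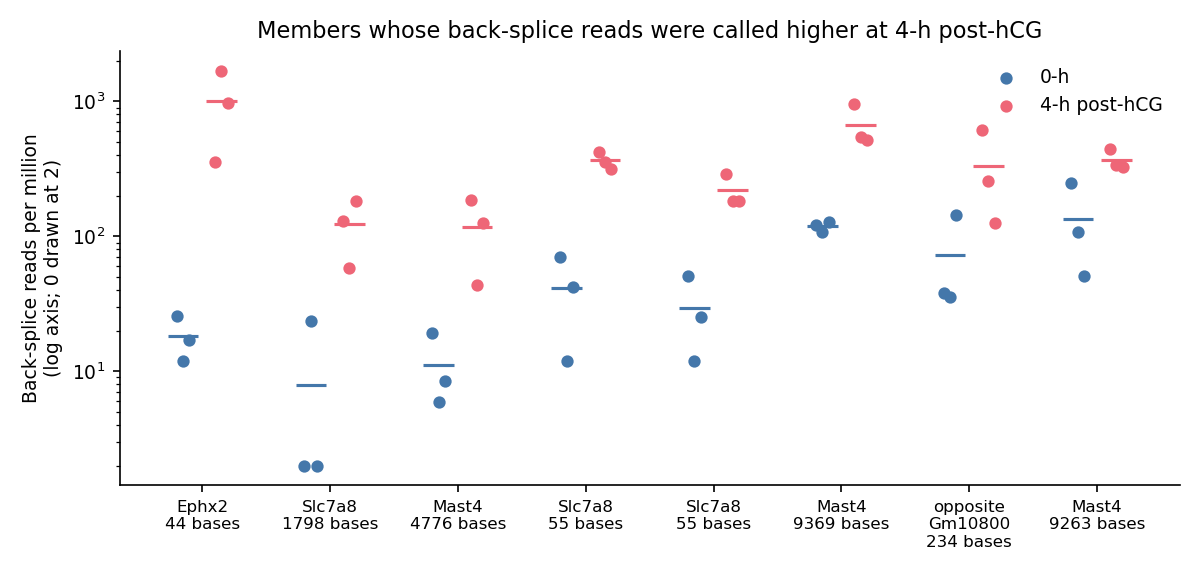
Back-splice reads in CPM, scaled by edgeR (y axis, log scale, 0 drawn at 2), of the 8 members called, by gene and span. Points are libraries and lines are group means of 3 libraries. The Ephx2 member is at 18.1 at 0-h and 1006 at 4-h post-hCG, while the member opposite Gm10800 has overlapping groups.

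The table also gives a linear count for every junction, with no account of how linear reads were assigned to it. Of the members, 2873 had at least 10 linear counts and were tested, and 869 (30.2%) were called, 618 higher and 251 lower at 4-h post-hCG. Over all 23539 junctions fitted, 25.2% were called, 14.3% higher and 10.8% lower. Counts as given did not overlap between the groups in 508 of those that rose and in 199 of those that fell. The same count over all junctions fitted is not given here. Whether members separate more often than other called junctions was therefore not tested. Without 0-h replicate 3 only 148 members fell. Of the 618 that rose, 362 had no back-splice read at 0-h, and of the 251 that fell, 102 had none at 4-h post-hCG. These entered the set only through the group in which their linear counts were higher, so the counts of calls are a description of the members and not support for a direction. All 8 members called in back-splice reads were called here too. Members of 1 gene share its RNA, and shifted rows share nearly all their counts, so these are not independent results. The called members lay in 331 different genes or combinations, and 131 lay in none on the same strand. By kind, 30.5% of members with neither dinucleotide and 29.1% of those with AG and GT were called. Over all junctions fitted, these shares were 29.0% and 23.4%. Of 205 tested members with no GENCODE gene at either end, 101 (49.3%) were called, 85 higher and 16 lower. Over all 219 fitted junctions of this kind, the members included, 108 were called, the same share.

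Members in several genes that the LH surge is known to switch on had higher linear counts at 4-h post-hCG. All members in Ereg, Btc, Tnfaip6, Pgr, Vcan, Snap25, Runx2 and Cyp11a1 had 0 back-splice reads at 0-h, so they were admitted through the 4-h post-hCG group alone. Ereg encodes the EGF-like ligand epiregulin. Its intronic member (chr5:91077454-91079527) had 0 linear counts in all 3 libraries at 0-h and 141, 115 and 137 at 4-h post-hCG, at least 137-fold higher (against a floor of 3 counts over the 0-h group, adjusted p = 5.6e-10, edgeR). In the same gene cluster, a member with an end opposite Epgn, another EGF-family ligand, had 0, 0 and 0 against 213, 106 and 157, at least 166-fold higher (chr5:91022735-91032344, adjusted p = 1.3e-09, edgeR). Both had few back-splice reads, 5 and 15.

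Tnfaip6 encodes a protein that cross-links the hyaluronan matrix of the expanding cumulus. Its 52-base member, listed in 2 shifted rows, had 0 linear counts at 0-h and 63, 54 and 52 at 4-h post-hCG in the first row, at least 58.8-fold higher (chr2:52049796-52049847, adjusted p = 2.3e-08, edgeR). Pgr encodes the progesterone receptor, which follicle rupture requires. A member in its intron (chr9:8949511-8950038) had 1, 0 and 0 linear counts at 0-h and 319, 192 and 170 at 4-h post-hCG, a ratio of 711 with an exact counting interval from 127 to 28139 (adjusted p = 1.3e-11, edgeR). In none of these did a library at 4-h post-hCG come near the 0-h range. The lincRNA gene Gm12648 had 2 members (chr4:94359820-94372129 and chr4:94361265-94372129) with 0 counts at 0-h and 219, 133 and 111 and 164, 90 and 86 at 4-h post-hCG, at least 161-fold and 118-fold higher. A member in no gene (chr10:17216860-17218112, 76586 bases from Gm47760) had 0 counts at 0-h and 53, 41 and 37 at 4-h post-hCG, at least 45.6-fold higher. Like the member opposite Epgn, this one and those of Gm12648 had no linear counts at 0-h. They may thus also have been admitted through the 4-h post-hCG group, and their values are a description.

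Of 29 genes of the periovulatory follicle that were looked up by name, 15 had a member, 104 members in all. The other 14, among them the EGF-like ligand gene Areg and the prostaglandin synthase gene Ptgs2, had none. Of the 104 members, 82 were called higher in linear counts and 15 lower. In Inhba alone there were 62 of the increases and 4 of the decreases. Over all junctions fitted, 14.3% were called higher and 10.8% lower. Members of 1 gene are not independent, so whether the list differs from other junctions was not tested. Of the 35 members outside Inhba, 20 rose and 11 fell, and 18 of these 20 had no back-splice read at 0-h. Besides those above, the rises were in Btc, a further EGF-like ligand (0, 0 and 0 against 14, 10 and 4), Snap25, a SNARE protein of vesicle fusion (0, 0 and 0 against 8, 8 and 7), and Star, which moves cholesterol into mitochondria (22, 11 and 16 against 888, 635 and 631). Cyp11a1, the enzyme that cleaves the cholesterol side chain, rose from 11, 8 and 10 to 20, 37 and 19. All 6 members of Vcan, a matrix proteoglycan, rose (median log2 fold change 3.83), as did all 3 of the transcription factor gene Runx2 (3.54) and the 1 of Rgcc, a cell cycle regulator (1.66). None of the members in these genes was called in back-splice reads. All 6 of Vcan, all 3 of Pgr and all 3 of Runx2 had back-splice reads in 4-h post-hCG replicate 1 only.

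Inhba, encoding the βA subunit of inhibins and activins, had 69 members, second only to Gm26917. They had 430 reads in 49 sets, at most 17 in any 1, no AG and GT on their own strand, and 40 were read in a single library. Summed back-splice reads were 45, 106 and 49 at 0-h and 147, 56 and 27 at 4-h post-hCG, which overlapped. The median log2 fold change of the linear counts was 0.79, with a range from -1.14 to 0.95. The summed linear counts were 46937, 100551 and 34714 at 0-h and 115552, 99888 and 67838 at 4-h post-hCG. These overlapped, and 0-h replicate 2 was as high as the libraries after hCG. The 62 increases became 28 without 0-h replicate 3, 31 without 0-h replicate 1, and 43 to 65 without any other library.

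The other falls in the same list were in Fshr, Inha and Lhcgr. All 9 members of Fshr, the receptor for follicle-stimulating hormone, fell in linear counts, by a median of 1.51 on the log2 scale, and their back-splice reads went from 20, 14 and 16 to 7, 0 and 0 without a call. Fewer than 9 fell when a library was left out: 4 without 0-h replicate 3, 6 without 4-h post-hCG replicate 1 or 3, and 8 without any of the others. The linear counts of the Inha member, in the gene of the inhibin α subunit, fell from 1308, 1656 and 1132 to 664, 526 and 414. All 5 back-splice reads of this member were in 0-h replicate 2. It was thus admitted through the 0-h group alone, and its fall is a description. Of 4 members in Lhcgr, the LH receptor gene, 1 fell (log2 fold change -0.60, adjusted p = 0.096, edgeR), a row shifted by 2 bases from one that was not called (adjusted p = 0.103). The call was lost without 0-h replicate 2 or 3 or 4-h post-hCG replicate 2 or 3. The member of Egfr, the receptor of the EGF-like ligands, had 2, 5 and 4 counts against 0, 3 and 3 and was not called. Outside that list, 6 of 9 members of Nr5a2, a nuclear receptor of granulosa cells, fell, as did 9 of 10 in Fam13a.

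Among other genes with many members, the linear counts of every member rose in Frmd5 (27 of 27, median log2 fold change 2.59), Gramd1b, a sterol transfer protein (17 of 17, 1.56), Mrap, a partner of the ACTH receptor (14 of 14, 3.96), Slc7a8 (11 of 11, 3.55), Itga2, an integrin subunit (10 of 10, 4.18), and Ephx2 (7 of 7, 4.24), and in 28 of 29 of Mast4 (2.11). Each of the 10 Itga2 members was read in a single library, with at most 6 back-splice reads, and all of these libraries were at 4-h post-hCG. None of the 133 in Gm26917, the 26 in Kirrel3os or the 14 in Bmpr1b, a receptor for bone morphogenetic proteins, was called. Other genes were mixed, among them Sema5a (9 of 16 called higher) and Ano4 (7 of 15 called lower). The 9 became 5 without 4-h post-hCG replicate 3, and the 7 became 0 without 0-h replicate 3. Members of 1 gene share its RNA, so these counts within a gene are not independent results.

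**Figure D5:**
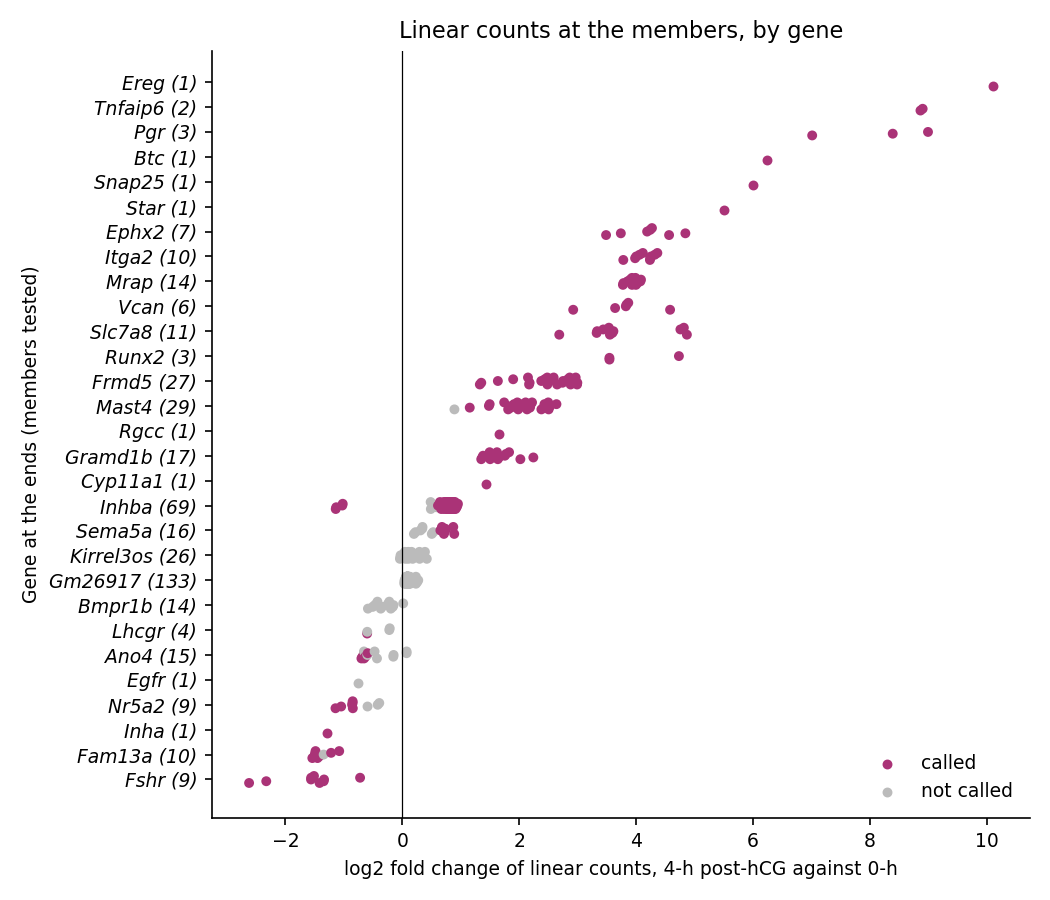
log2 fold change of linear counts, 4-h post-hCG against 0-h (x axis), of each tested member (points), by the gene at its ends (y axis, number of members tested in brackets). Purple points were called. Members of Ereg, Tnfaip6 and Pgr lie farthest to the right and those of Fshr farthest to the left.

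The largest falls among called members with separate groups were in shallow junctions. Near Cyp19a1, the aromatase gene, a member lying 1 base from the annotated gene (chr9:54165742-54165936) had 4, 6 and 3 linear counts at 0-h and 0 in all 3 libraries at 4-h post-hCG, at least 4.15-fold lower (adjusted p = 0.015, edgeR). The Slc24a4 member (chr12:102187961-102187997) had 8, 3 and 3 against 0, 0 and 0, at least 4.47-fold lower (adjusted p = 0.016, edgeR). A member opposite Comp, a cartilage matrix gene, in the RefSeq gene Gm51533 (chr8:70374085-70374151) had 35, 50 and 40 against 5, 5 and 0, and 2 shifted rows opposite Rgs6, a regulator of G protein signalling (chr12:83131252-83131334), had 27, 65 and 25 against 6, 4 and 0 in the first row. The Lzts1 member (chr8:69158353-69158382) had 8, 10 and 12 against 0, 1 and 0. Members in Gm35041 (chr12:77010918-77014790) and 22157 bases from Hfm1 (chr5:106817964-106818035) had 17, 3 and 2 against 1, 0 and 1, and 2, 4 and 6 against 0, 1 and 0. Both of these calls were lost when single libraries were left out: 0-h replicate 1 or 4-h post-hCG replicate 2 for the first (highest adjusted p = 0.405, edgeR), and 0-h replicate 3 or 4-h post-hCG replicate 1 or 3 for the second (highest adjusted p = 0.198, edgeR).

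Of the deep members not placed above, the one in Zfp532, a zinc finger gene, had 108, 136 and 87 back-splice reads at 0-h and 151, 78 and 75 at 4-h post-hCG, with overlapping groups. It starts and ends at annotated exon ends, spans 17883 bases and still names no gene in the table. All 8 members in that gene had AG and GT and both ends in exons, and together they had 994 reads.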

How the data were processed

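Total stranded RNA of mural granulosa cells from 6 mice was sequenced as paired ends. By the methods of the paper, the authors trimmed reads (cutadapt), aligned them to GRCm38 (TopHat, then TopHat-Fusion) and called back splices (CIRCexplorer). They deposited raw counts of back-splice reads and linear counts per junction and library. For linear counts, the sources used here give no method. A table of the authors' own comparisons was not used. The members and lists were chosen with earlier results of these data known.

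Library size was the sum over junctions naming a gene, with TMM factors from those with at least 5 reads. Counts of all junctions with at least 5 back-splice reads (and, for linear counts, at least 10) were fitted in edgeR 4.0.16 (R 4.3.3; quasi-likelihood F-test) with Benjamini-Hochberg adjustment. SE is the log2 fold change divided by the root of F. DESeq2 1.42.0 was an alternative. Rows naming no gene were fitted here because they are the subject, and took 15.6% to 18.9% of reads. Dinucleotides were read from GRCm38.p6, genes from GENCODE M21 and RefSeq. Repeats were the lower-case bases within 25 bases of either end. Shares were compared with two-sided exact permutation tests. No 2 libraries of a group agreed within sampling noise (chi-square per degree of freedom 2.01 to 3.20). Same-numbered libraries did not deviate together, so numbers were not used as pairs. Named junctions were the 10 deepest, the 2 deepest of each type and kind of ends, up to 8 called with the largest rise and fall without overlap, the 3 deepest on the chromosome densest in members and the 5 longest with at least 20 reads, and the back-splice calls. Intervals cover counting error only.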

Additional observations from a re-analysis of the deposited data

How the results depend on the processing

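Against 8 members called in back-splice reads, 7 to 8 were called under RLE factors, a library size from all junctions, DESeq2, filterByExpr, a stricter adjusted p of 0.05, a fit of junctions naming no gene alone and 1 row per set of shifted rows (the last chosen after seeing the data). Without a filter on low counts 5 were called, where 316626 junctions shared the adjustment. Leaving out 1 library gave 5 to 10. DESeq2 lost the 9263-base Mast4 member, the Slc7a8 ciRNA and the member opposite Gm10800, and an absent filter lost both lesser Mast4 members and the ciRNA. The 9263-base member was also lost with a library size from all junctions and in the fit without genes. Against 869 members called in linear counts, 721 to 875 were called under these alternatives and 733 to 887 without 1 library. With the replicate block, 8 and 833 were called. The numbers do not pair the libraries: correlations of same-numbered libraries ran from -0.034 to 0.024. The difference in the share of back-splice reads was 1.095 points, 0.12 to 1.67 without 1 library, and with the replicate block p was 0.5 (exact sign-flip test). Over every junction naming no gene it reversed to -0.58 points once junctions under 5 reads were included. The difference in the share of member reads on the single circRNA member, 0.0077 points, ranged from -0.025 to 0.024 without 1 library. The share of members with AG and GT moved from 19.7% to 39.3% at 10 reads. With 3 libraries a group, permutation tests cannot go below 0.1, and 1538 members have only 5 reads, which limits any call in single junctions.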
